A study of Mus musculus with 8 samples.

Results

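A group of 39 mouse genes of the NRF2 response, glutathione and thioredoxin chemistry and the pentose phosphate pathway was examined in MC38 tumours. The genes were taken as a list of symbols, and all 39 were found by their Ensembl identifiers among the 56691 rows of the count table. MC38 is a colon adenocarcinoma line of C57BL/6 origin, here grown as tumours in C57BL/6J mice. RNA from 4 control tumour samples was compared with RNA from 4 tumour samples of mice that received C26, given at 10 mg/kg on alternate days over 2 weeks. The labels give the agent by its code alone, and state neither what the control mice received nor the age of the animals or the site of the tumours. Nothing in the labels says that each sample came from its own animal, so the p-values measure the spread between these samples. No genotype or allele other than the host strain and the line is named, and all 8 samples share them.

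NRF2, encoded by Nfe2l2, is a transcription factor that KEAP1 holds back by handing it to a ubiquitin ligase. Electrophiles and oxidants modify cysteines of KEAP1, NRF2 accumulates, and with small MAF proteins it binds antioxidant response elements near genes for glutathione synthesis, thioredoxin chemistry, quinone reduction and NADPH production. Glutathione and thioredoxin then hand electrons from NADPH to peroxidases, and the pentose phosphate pathway is a main source of that NADPH. In many tumours this response is active and is known for protecting cells from peroxides and drugs.

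Depth was similar across libraries, with 17075176 to 21517425 counts each. All 39 genes passed the low-count filter, as did 15755 genes in all. The tumour pieces held other cells too: the summed level of 12 fibroblast genes lay between 4510 and 6530 CPM in control and between 7190 and 9700 CPM in C26 libraries, and that of 16 skeletal muscle genes between 20.1 and 66.3 CPM in control and between 49.1 and 762 CPM in C26 libraries, highest in C26 libraries 2 and 3 (762 and 187 CPM). Red cell genes summed to between 23.0 and 100.1 CPM in control and to between 8.41 and 11.9 CPM in C26 libraries, whereas macrophage genes overlapped (824 to 1190 against 711 to 1040 CPM). In exact permutation tests of the mean log2 level of each list, the fibroblast and red cell lists had the smallest p that 4 against 4 samples allow (p = 0.0286, adjusted p = 0.172). The muscle list had a permutation p of 0.0571 (adjusted p = 0.228). The adjustment counted 12 lists, of which 10 held tested genes, so it is stricter than over those 10 alone. Of 10 colon epithelial markers, 2 passed the low-count filter, Cdh1 and Lgals4; Krt8, Krt18, Krt19 and Krt20 had at most 5 counts each over all 8 libraries and Cdx2 had none. In bulk tumour RNA, fewer cells of a type and less RNA per cell cannot be told apart.

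The genes that passed the test were all lower in C26. In C26 tumours 6 of the 39 genes fell: Gpx4 and Sod1, which remove lipid peroxides and superoxide, Pgls and Tkt of the pentose phosphate pathway, the glutathione transferase Gsto1 and the peroxiredoxin Prdx6. None rose past the threshold. Of all tested genes, 4.12% were lower and 3.64% higher, and 9.29% were lower among genes at 50 CPM or more. All 6 calls were lost when the level of skeletal muscle genes was added to the fit. Between 3 and 5 genes were lower when 1 library was left out. The falls were small, from 14.5% for Tkt to 25.2% for Gpx4. NRF2 itself, KEAP1 and the classical NRF2 targets Nqo1, Gclc, Gclm, Srxn1 and Txnrd1 did not pass the test in either direction.

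The test was edgeR's quasi-likelihood test over all 15755 genes with Benjamini-Hochberg adjustment and an adjusted p under 0.05. By that rule 4.12% of all tested genes were lower in C26 and 3.64% were higher. Of the 39 genes, 12 were lower and 2 higher at an unadjusted edgeR p under 0.05, beside 1960 and 2070 of all 15755 tested genes. DESeq2 called 9 lower and 1 higher, beside 993 and 820 of all genes. The limma-voom fit called 7 lower and 0 higher, beside 789 and 747 of all genes. The log2 fold change was below 0 for 30 of the 39 genes and above 0 for 9, with a median of -0.10. Over all tested genes it was below 0 for 7718 and above 0 for 8037, with a median of 0.01. In 9 of the 39 genes every C26 library lay below every control library, which was so for 8.14% of all tested genes, and in 1 every C26 library lay above, against 7.91%. The list holds many abundant genes. In the 27 with a control mean of at least 50 CPM, a level chosen after the values were seen, 6 fell, beside 9.29% of all genes at that level.

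The level of skeletal muscle RNA differed between libraries, with 69.5, 762, 187 and 49.1 CPM in C26 libraries 1 to 4. Gpx4, Pgls and Sod1 were lowest in C26 library 2, with the most muscle RNA, whereas Prdx6 and Tkt were lowest in C26 library 4, with the least of the 4, and Gsto1 in C26 library 1. With the mean level of the muscle list as a covariate none of the 6 calls remained, and the log2 fold changes, all still below 0, lay between -0.23 for Pgls and -0.36 for Prdx6. Over all genes that covariate gave 54 calls, 39 of them among the 1223 made without it. The covariate itself differed between the groups (mean log2 CPM of -0.46 to 1.85 in control and 1.66 to 5.46 in C26 libraries). With it the log2 fold changes moved in both directions, from -0.37 to -0.23 for Pgls and from -0.25 to -0.36 for Prdx6. The SE grew with the covariate, for example from 0.0842 to 0.13 for Nfe2l2 and from 0.0819 to 0.132 for Keap1, neither of them a called gene. Whether muscle RNA or this loss of precision ended the calls was not tested. Leaving out C26 libraries 2 and 3 together kept Gpx4 and Prdx6 and ended the calls of Pgls, Sod1, Gsto1 and Tkt. The part of the muscle, fibroblast and red cell RNA in these results was otherwise not tested.

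**Figure D1:**
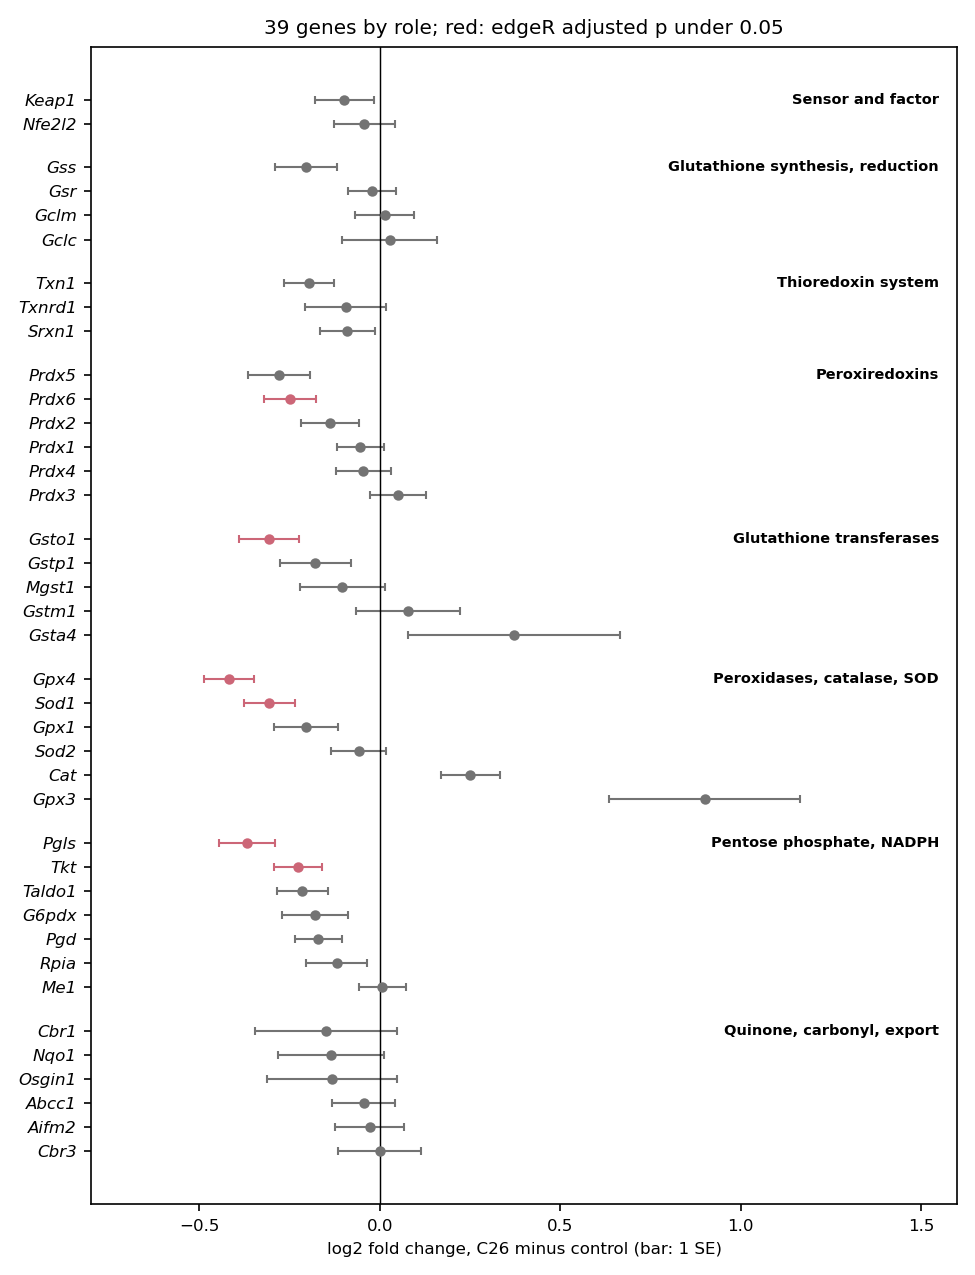
Log2 fold change of each of the 39 genes (horizontal axis, C26 minus control), grouped by role, with bars of 1 SE derived from the edgeR test. The 6 genes in red, Gpx4, Pgls, Gsto1, Sod1, Prdx6 and Tkt, passed an adjusted p under 0.05, and all lie below 0. Gpx3, the farthest to the right, did not pass.

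Neither the sensor nor the factor passed the test. The Nfe2l2 transcript, encoding NRF2, stood at 83.5 ± 7.55 CPM in control tumours and 81.0 ± 8.0 CPM in C26 (SD, n = 4 each; edgeR log2 fold change -0.04 ± 0.08 SE, adjusted p = 0.79). Keap1 stood at 58.7 ± 5.54 and 54.8 ± 3.74 CPM (log2 fold change -0.10 ± 0.08 SE, adjusted p = 0.476). These are transcript levels, and NRF2 is controlled mostly through the stability of its protein, which was not measured.

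The DNA motif that NRF2 binds was looked up in the starts of these genes, because NRF2 is known to act through it at many of its targets, although not every gene of the list is such a target. RefSeq promoter windows on GRCm38.p6, from 250 bases before to 50 bases after an annotated start, were present for 34 of the 39 genes, some with several starts. The core TGACNNNGC, read on both strands, was found in 10 of the 34, one window each, or in 10 of their 43 windows (23.3%) against 12.4% of all 32851 windows. Each match is given with 6 bases on either side, 5′ to 3′ on the strand that carries it, with the matched letters in capitals.
G6pdx (chrX:74428923-74428943, plus strand): gtgcttTGACTGAGCtgaccc
Gclm (chr3:122245417-122245437, minus strand): gagagtTGACGGTGCgcccgg
Me1 (chr9:86695906-86695926, minus strand): ccgccgTGACTCAGCgcttct
Mgst1 (chr6:138140465-138140485, minus strand): gcctccTGACCGTGCcaagcc
Nfe2l2 (chr2:75704889-75704909, minus strand): cccaccTGACTCCGCcatgcc
Pgd (chr4:149166065-149166085, minus strand): cagagcTGACATTGCactgat
Prdx1 (chr4:116685460-116685480, minus strand): gggggaTGACTCAGCgctttc
Sod1 (chr16:90220700-90220720, minus strand): tgagtcTGACCACGCccacct
Srxn1 (chr2:152105546-152105566, minus strand): tcactcTGACCTAGCtgccca
Txnrd1 (chr10:82859108-82859128, minus strand): tcagaaTGACAAAGCaaaaat
In Me1 and Prdx1 the matched letters also contain the AP-1 motif TGANTCA. That motif was in 5 of the 43 windows (11.6%) against 7.81% of all windows. The matches of Me1 and Pgd are centred within 8 bases of the start annotated for their window, and that of Nfe2l2 lies farthest out, 236 bases before its start. The Pgd window with the match (chr4:149166033-149166332) belongs to a start inside the gene (chr4:149149991-149166771, minus strand). The other Pgd window (chr4:149166656-149166955), at the gene's outer start, had no match. The Txnrd1 match is also at a start inside its gene (chr10:82833951-82897712). Of the 10 genes with the core, Sod1 was lower in C26 by the test, and the median log2 fold change was -0.09. Of the 24 without it, 4 were lower, Gpx4, Pgls, Gsto1 and Tkt, and the median was -0.14. By the same test 4.12% of all tested genes were lower (9.29% at 50 CPM or more). A difference between genes with and without the core was not tested, and none is read from these counts. Prdx6, Gclc, Gsr, Gsta4 and Abcc1 were not matched to a window. A match is a description of letters, and sites outside these windows were not examined.

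Glutathione is made by glutamate-cysteine ligase, whose catalytic and modifier subunits are Gclc and Gclm, and then by glutathione synthetase, Gss, and glutathione reductase, Gsr, restores its reduced form with NADPH. None of the 4 transcripts passed the test. Gclc was at 65.2 ± 12.6 CPM in control tumours and 66.3 ± 9.56 CPM in C26 (adjusted p = 0.924), and Gclm at 75.1 ± 4.97 and 75.7 ± 7.53 CPM (adjusted p = 0.941). The level of Gsr was 253 ± 6.09 and 249 ± 14.5 CPM (adjusted p = 0.865). Gss was nearest to the threshold, with 42.3, 42.9, 42.6 and 36.0 CPM in controls 1 to 4, against 38.2, 33.3, 38.2 and 32.6 CPM in C26 libraries 1 to 4 (log2 fold change -0.20 ± 0.09 SE, adjusted p = 0.149). Control library 4 lay within the C26 range, so the Gss groups overlapped. Exons of Gss overlap those of Acss2 on the other strand, and no source used here gives the strand setting of the counting. Those of Gclm overlap Gm17494 in the same way, which was low (8.05 and 5.10 CPM) and fell (edgeR adjusted p = 0.0336). Exons of Keap1, G6pdx, Me1 and Aifm2 also overlap those of genes on the other strand.

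In the thioredoxin system, thioredoxin (Txn1) reduces disulfides in proteins, thioredoxin reductase (Txnrd1) recharges it with NADPH, and sulfiredoxin (Srxn1) repairs over-oxidised peroxiredoxins. Txn1 was the highest of the 39 genes per kilobase of exon, at 494 CPM per kb in control. Its level was 487, 550, 541 and 498 CPM in controls 1 to 4, against 474, 462, 448 and 428 CPM in C26 libraries 1 to 4. The groups did not overlap, yet the difference missed the adjusted threshold (log2 fold change -0.20 ± 0.07 SE, adjusted p = 0.088). Txnrd1 was at 281 ± 41.8 and 262.4 ± 35.3 CPM (adjusted p = 0.634), and Srxn1 at 83.8 ± 8.25 and 78.7 ± 2.29 CPM (adjusted p = 0.484).

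Peroxiredoxins are abundant thiol peroxidases, and here 1 of 6 was lower in C26, beside 4.12% of all tested genes. Prdx6, which takes its electrons from glutathione rather than thioredoxin, is on chr1:161240112-161251219 (minus strand, GENCODE M21 on GRCm38). It had 295, 297, 286 and 311 CPM in controls 1 to 4, against 238, 260.8, 274 and 228 CPM in C26 libraries 1 to 4. Every C26 library was below every control library, and the level fell by 15.8% (log2 fold change -0.25 ± 0.07 SE, edgeR adjusted p = 0.0461). The call lies close to the threshold: of the 8 fits that each left out 1 library, the one without C26 library 3 kept it (adjusted p from 0.0382 to 0.119).

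Prdx5, found in mitochondria, peroxisomes and cytosol, had 162, 173, 187 and 156 CPM in controls 1 to 4, against 165, 125, 134 and 136 CPM in C26 libraries 1 to 4. C26 library 1 lay among the control libraries while the other 3 lay below them (log2 fold change -0.28 ± 0.09 SE, adjusted p = 0.0586), and without that library the test called Prdx5 lower (adjusted p = 0.0102). Exons of Prdx5 overlap those of Trmt112 on the other strand, and Trmt112 fell too (log2 fold change -0.25, adjusted p = 0.0262), so reads could be shared if strand was ignored. The cytosolic Prdx1, the highest of the family per kilobase, was at 732 ± 24.2 CPM in control tumours and 705 ± 32.2 CPM in C26 (adjusted p = 0.64). Prdx2, also cytosolic, was at 308 ± 22.8 and 280 ± 27 CPM (adjusted p = 0.295). Its exons overlap on the other strand those of Rnaseh2a, which fell, and of Junb, which did not pass the test. The mitochondrial Prdx3 (67.5 ± 3.92 and 69.9 ± 6.43 CPM, adjusted p = 0.725) and the endoplasmic reticulum enzyme Prdx4 (193 ± 17 and 187 ± 11.8 CPM, adjusted p = 0.742) did not pass either. The summed level of the 6 was 1767 ± 61.1 CPM in control and 1631 ± 69.3 CPM in C26.

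Glutathione transferases couple glutathione to electrophiles, and 1 of 5 was lower in C26, beside 4.12% of all tested genes. Gsto1, the omega-class enzyme, which acts as a thiol transferase, is on chr19:47854970-47864790 (plus strand). Its levels were 275, 275, 254 and 338 CPM in controls 1 to 4, against 219, 234, 237 and 233 CPM in C26 libraries 1 to 4. The C26 libraries were close together and below all controls, while control library 4 stood high, and the fall was 19.3% (log2 fold change -0.31 ± 0.08 SE, edgeR adjusted p = 0.0327). Leaving out any library but control library 3 ended the call (adjusted p from 0.0284 to 0.0847), as did per-library offsets for length and GC (adjusted p = 0.111).

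Gstp1, the pi-class enzyme and the highest transferase of the list per kilobase after Gsto1, had 184, 219, 233 and 231 CPM in controls 1 to 4, against 228, 169, 174 and 194 CPM in C26 libraries 1 to 4. The groups overlapped, with C26 library 1 among the higher controls (log2 fold change -0.18 ± 0.10 SE, adjusted p = 0.273). The near-identical Gstp2 had 5.20 and 4.60 CPM, and no source used here says how reads matching both were counted. The mu-class Gstm1 was at 41.7 ± 3.37 and 44.0 ± 10.2 CPM (adjusted p = 0.777), and its paralog Gstm2 at 18.4 and 18.8 CPM. Mgst1, a membrane-bound transferase, was at 34.4 ± 2.73 and 32.0 ± 5.97 CPM (adjusted p = 0.616). Gsta4, an alpha-class enzyme that acts on lipid aldehydes, was the lowest of all 39 per kilobase and had 1.93 ± 0.38 and 2.49 ± 1.24 CPM (adjusted p = 0.452).

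**Figure D2:**
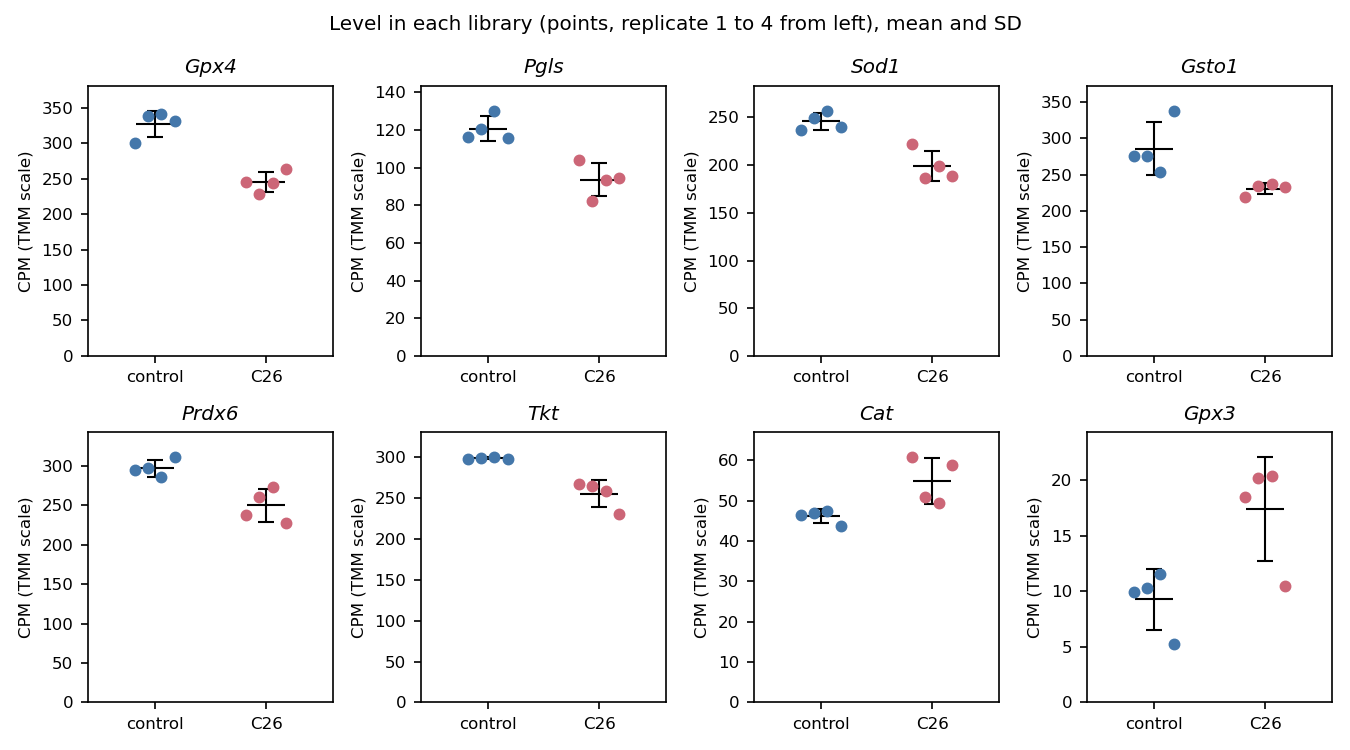
Level of 8 genes (vertical axes, CPM on the TMM scale, starting at 0) in each library, with points for replicates 1 to 4 from left to right and the mean with 1 SD in black. In the 6 genes that fell, every C26 point is below every control point; Cat shows the opposite order, and in Gpx3 C26 library 4 (10.5 CPM) lies among the controls.

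Peroxidases, catalase and superoxide dismutases held the largest difference of the list that passed the test. Gpx4, a selenoprotein that reduces lipid hydroperoxides in membranes and so protects cells from ferroptosis, is on chr10:80047166-80056439 (plus strand). It had 301, 338, 341 and 332 CPM in controls 1 to 4, against 245, 229, 244 and 263.9 CPM in C26 libraries 1 to 4. The lowest control library stood well above the highest C26 library, and the level fell by 25.2% (log2 fold change -0.42 ± 0.07 SE, edgeR adjusted p = 0.00365). The call held in all 8 fits that left out 1 library (adjusted p from 0.00526 to 0.0138) and was lost with the muscle covariate (log2 fold change -0.35, adjusted p = 0.143).

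Sod1, the cytosolic copper-zinc superoxide dismutase, is on chr16:90220754-90226329 (plus strand). Its levels were 237, 250, 257 and 240 CPM in controls 1 to 4, against 222, 186, 199 and 189 CPM in C26 libraries 1 to 4. The groups did not overlap, with C26 library 1 nearest to the controls, and the fall was 19.1% (log2 fold change -0.31 ± 0.07 SE, edgeR adjusted p = 0.0178). Without control library 3 the adjusted p was 0.0536, and the other 7 omissions kept the call. Sod2, the mitochondrial manganese enzyme, was at 65.5 ± 2.97 CPM in control tumours and 62.9 ± 5.53 CPM in C26 (log2 fold change -0.06 ± 0.08 SE, adjusted p = 0.666); the difference between Sod1 and Sod2 was not tested.

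Gpx1, the cytosolic selenoprotein peroxidase for hydrogen peroxide, had 113, 112, 135 and 104 CPM in controls 1 to 4, against 112, 87.9, 98.6 and 104 CPM in C26 libraries 1 to 4, and the groups overlapped (log2 fold change -0.21 ± 0.09 SE, adjusted p = 0.16). Cat, the peroxisomal catalase, was higher in each C26 library, with 46.5, 46.9, 47.5 and 43.8 CPM in controls 1 to 4, against 60.8, 50.9, 49.3 and 58.9 CPM in C26 libraries 1 to 4. It was the one gene of the 39 in which every C26 library was above every control library, but it missed the threshold (log2 fold change 0.25 ± 0.08 SE, adjusted p = 0.0674).

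Gpx3, the secreted plasma peroxidase, had the largest fold change of the list. Its levels were 9.91, 10.3, 11.6 and 5.27 CPM in controls 1 to 4, against 18.5, 20.3, 20.4 and 10.5 CPM in C26 libraries 1 to 4. In C26 libraries 1 to 3 it stood above all controls and in C26 library 4 among them (log2 fold change 0.90 ± 0.27 SE, adjusted p = 0.07). Gpx3 passed as higher with no low-count filter, with the replicate block and with length and GC offsets. It also passed with DESeq2 (adjusted p = 0.0423) and without C26 library 4 (edgeR adjusted p = 0.0131). With the muscle covariate its log2 fold change was 0.39 and it did not pass. Scaled by total library size alone, both Cat and Gpx3 were called higher (adjusted p = 0.0203 and 0.0441).

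Of the 7 genes for the pentose phosphate pathway and malic enzyme, 6 had a log2 fold change below 0 and 2 passed the test. Over all 15755 tested genes, 7718 were below 0 and 4.12% were called lower (9.29% at 50 CPM or more). G6pdx, the entry enzyme that makes the first NADPH, had 77.3, 76.3, 70.8 and 94.6 CPM in controls 1 to 4, against 69.2, 62.9, 77.6 and 71.8 CPM in C26 libraries 1 to 4, with overlapping groups (log2 fold change -0.18 ± 0.09 SE, adjusted p = 0.23). Pgls, the lactonase of the next step, is on chr8:71592176-71601092 (plus strand). Its levels were 117, 121, 130 and 116 CPM in controls 1 to 4, against 104, 82.4, 93.3 and 94.6 CPM in C26 libraries 1 to 4. All C26 libraries were below the controls, and the fall was 22.5% (log2 fold change -0.37 ± 0.08 SE, edgeR adjusted p = 0.0103). It held in all 8 fits without 1 library (adjusted p from 0.00495 to 0.0333). Pgls shares exon bases on the same strand with Fam129c, which was low (5.28 and 6.49 CPM) and did not pass the test.

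Pgd, the dehydrogenase that yields the pathway's other NADPH, had 227, 218, 219 and 223 CPM in controls 1 to 4, against 189, 193, 214 and 192 CPM in C26 libraries 1 to 4. Its groups did not overlap, and C26 library 3 was nearest to the controls (log2 fold change -0.17 ± 0.07 SE, adjusted p = 0.113); with the same length and GC offsets it passed as lower (adjusted p = 0.028). In the non-oxidative branch, the isomerase Rpia was at 36.0 ± 1.59 CPM in control tumours and 33.1 ± 3.30 CPM in C26 (adjusted p = 0.399). Transaldolase, Taldo1, had 159, 151, 174 and 161 CPM in controls 1 to 4, against 145, 127, 142 and 142 CPM in C26 libraries 1 to 4, also without overlap (log2 fold change -0.22 ± 0.07 SE, adjusted p = 0.0693).

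Transketolase, Tkt, is on chr14:30548359-30574720 (plus strand) and had 298, 299, 300.2 and 298 CPM in controls 1 to 4, against 268, 264.2, 258 and 231 CPM in C26 libraries 1 to 4. The controls were nearly equal, all C26 libraries were lower, and the fall was 14.5% (log2 fold change -0.23 ± 0.07 SE, edgeR adjusted p = 0.0496). This call is the weakest of the 6, since leaving out any library but C26 library 1 ended it (adjusted p from 0.037 to 0.125). Malic enzyme, Me1, which makes NADPH outside the pathway, was at 118 ± 6.06 and 118 ± 4.04 CPM (log2 fold change 0.01 ± 0.07 SE, adjusted p = 0.964). The 7 transcripts together summed to 1036 ± 18.3 CPM in control and 906 ± 28.7 CPM in C26, or 12.5% less, a sum with no test.

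None of the 6 genes for quinones, carbonyls and export passed the test. Nqo1, a quinone reductase and the usual reporter of NRF2 activity, was at 17.9 ± 2.96 CPM in control tumours and 16.3 ± 3.30 CPM in C26 (log2 fold change -0.14 ± 0.15 SE, adjusted p = 0.6). The carbonyl reductase Cbr1 was at 4.30 ± 0.182 and 3.88 ± 1.12 CPM (adjusted p = 0.671), and Cbr3 at 12.4 ± 0.903 and 12.4 ± 1.38 CPM (adjusted p = 0.999). Abcc1, which exports glutathione conjugates, was at 92.1 ± 6.5 and 89.2 ± 11.3 CPM (adjusted p = 0.784). Osgin1, a growth inhibitor induced by oxidative stress, was at 6.94 ± 1.71 and 6.33 ± 0.809 CPM (adjusted p = 0.682). Aifm2, which reduces ubiquinone and acts beside Gpx4 against ferroptosis, was at 21.7 ± 1.65 and 21.3 ± 1.83 CPM (log2 fold change -0.03 ± 0.10 SE, adjusted p = 0.885).

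Across libraries the list moved by small amounts. The median difference of the 39 genes from their control mean was -0.04, 0.00, 0.02 and 0.02 (log2) in controls 1 to 4, against -0.10, -0.18, -0.06 and -0.14 in C26 libraries 1 to 4. The medians of all 4 C26 libraries were below those of the controls, C26 library 2 farthest and C26 library 3 least. The separation was narrow. C26 library 3 was at -0.055, with 25 of 39 genes below their control mean, and control library 1 at -0.036, with 26 of 39. The SD of this median within groups averaged 0.0375. Summed over the 39 genes the level was 5809 ± 141 CPM in control and 5224 ± 112 CPM in C26, a difference of -10.1%. The summed level of peroxidases, catalase and dismutases was 811 ± 38.3 and 681 ± 31.6 CPM (-16.1%), and that of the glutathione synthesis and reduction genes was 434 ± 8.32 and 427 ± 26.4 CPM (-1.74%). These sums follow the most abundant genes and were not tested.

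**Figure D3:**
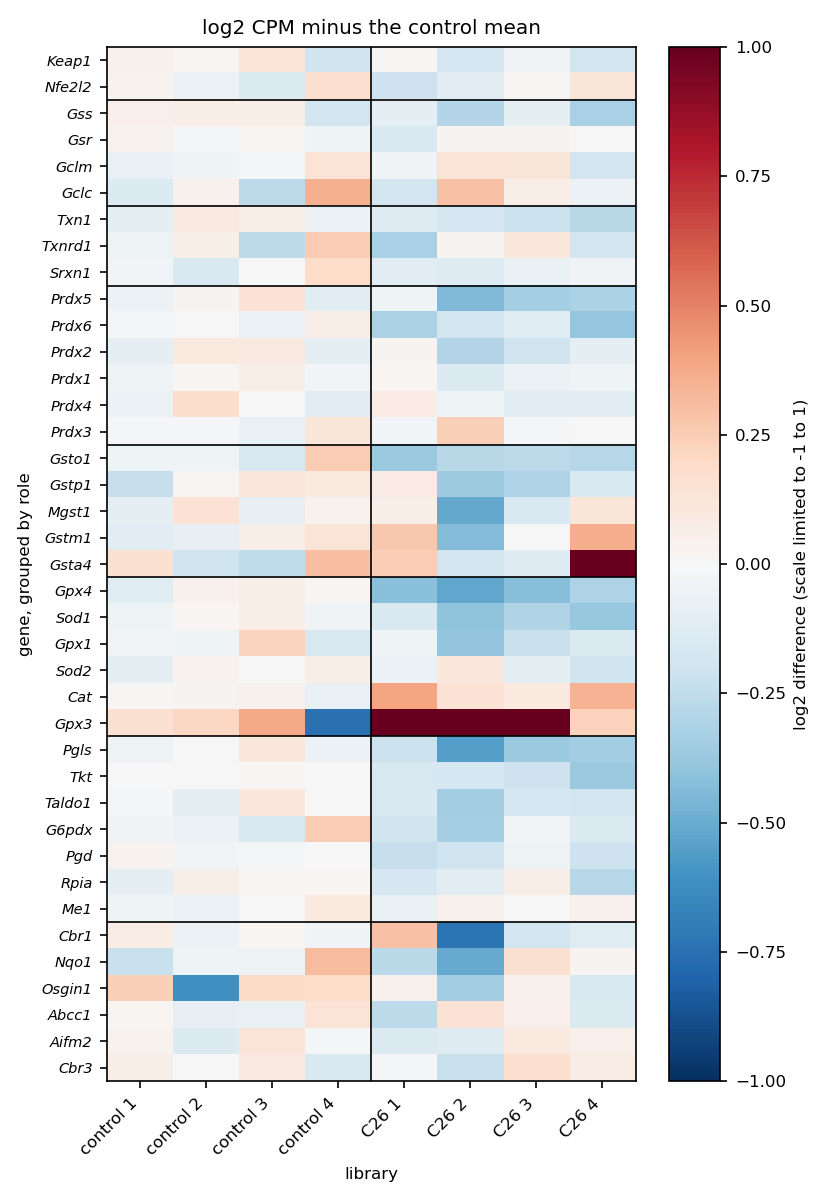
Log2 difference of each gene from its control mean (colour, limited to -1 to 1) in each library (columns), with genes in rows grouped by role. Gpx4, Sod1, Gsto1, Prdx6, Pgls and Tkt are blue in all 4 C26 columns, and Gpx3 is the darkest red row in C26 libraries 1 to 3.

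The genes that fell were in the upper and middle levels of the list. Ranked by CPM per kb of exon in control libraries, the 13 highest genes (61.9 to 494 CPM per kb) held 4 of the 6 that fell, and the log2 fold change was below 0 in all 13, with a median of -0.21. The middle 13 (17.1 to 45.7 CPM per kb) held the other 2, Pgls and Tkt, with a median of -0.09. The lowest 13 (1.52 to 12.5 CPM per kb) held none, with a median of -0.06. Among all tested genes too the share called lower was higher at 50 CPM or more (9.29%) than over all levels (4.12%). That cut is in CPM with no regard to gene length, unlike the ranking by CPM per kb. The order is not read as particular to the list. The SE of Gsta4, 0.29, was larger than the fall of Tkt on the log2 scale.

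**Figure D4:**
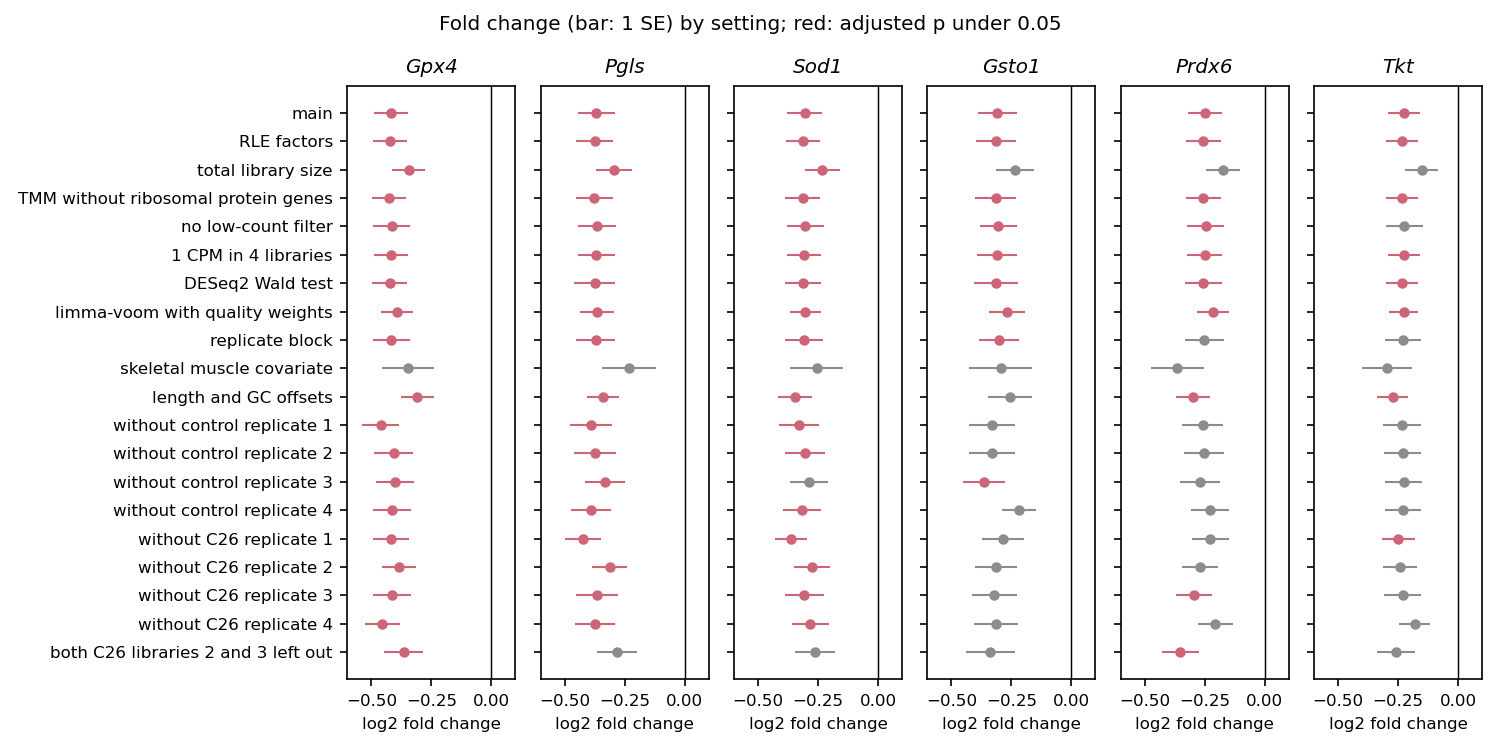
Log2 fold change (horizontal axes) with bars of 1 SE for the 6 genes that fell, one panel each, under the reported fit (top row, main) and 19 alternatives (rows); red marks an adjusted p under 0.05. Every point lies below 0, all 6 panels are grey under the skeletal muscle covariate, and Gpx4 is red under the other 18 alternatives.

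Other genes of the same pathways were taken from 7 lists by function. Of 131 such genes, 120 were tested, and 8 were lower and 2 higher in C26, with a median log2 fold change of -0.05. These counts stand beside 4.12% of all tested genes lower and 3.64% higher (9.29% lower at 50 CPM or more), and nothing particular to these genes is read from them. The regulators around NRF2 (14 genes, among them Cul3, Bach1 and Mafg) had none in either direction, and neither had 8 tested genes for oxidant sources. Of 18 tested NRF2 targets outside the 39, the heme transporter Slc48a1 fell (84.3 to 68.7 CPM, log2 fold change -0.30, adjusted p = 0.046). The heme oxygenase Hmox1 and the autophagy receptor Sqstm1, named after their values were seen, had larger differences that did not pass. Hmox1 was at 126 ± 43.1 CPM in control tumours and 67.6 ± 18.9 CPM in C26, with overlapping groups (log2 fold change -0.90 ± 0.30 SE, edgeR adjusted p = 0.124). Sqstm1, whose product can take KEAP1 away from NRF2, was at 1048 ± 267 and 702 ± 113 CPM, with no overlap (log2 fold change -0.58 ± 0.18 SE, edgeR adjusted p = 0.084).

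Of 35 further glutathione genes 4 fell, beside the same 4.12% of all tested genes. Slc25a39, which carries glutathione into mitochondria, fell from 252 to 206 CPM (log2 fold change -0.29, edgeR adjusted p = 0.0143), and the call held in all 8 fits without 1 library. Ggct, which breaks down gamma-glutamyl peptides, fell from 11.7 to 7.64 CPM (log2 fold change -0.62, adjusted p = 0.0172). The monothiol glutaredoxins Glrx3 and Glrx5, which serve iron-sulfur cluster assembly, fell from 185 to 154 CPM (adjusted p = 0.0226) and from 79.6 to 63.1 CPM (adjusted p = 0.0241). The calls of Ggct, Glrx3 and Glrx5 were each lost in 2 of the 8 omissions: Ggct without control library 2 or C26 library 4, Glrx3 without control library 1 or 3, and Glrx5 without control library 3 or C26 library 4.

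Among 18 further thioredoxin-related genes the stress-induced sestrin Sesn2 fell from 59.0 to 43.4 CPM (adjusted p = 0.0268), and Txndc5, a thioredoxin-domain protein of the endoplasmic reticulum, rose from 225 to 262.8 CPM (adjusted p = 0.0375). Mthfd2, a mitochondrial folate enzyme, was the 1 of 19 further NADPH genes to fall (246 to 193 CPM, adjusted p = 0.0493). Of 8 genes for selenoprotein synthesis, the kinase Pstk fell from 37.2 to 30.1 CPM (edgeR adjusted p = 0.0459). Secisbp2l, a binding protein for selenocysteine insertion elements, rose from 35.3 to 45.7 CPM (edgeR adjusted p = 0.00812). The log2 fold change was below 0 in 4 of these 8 genes and above 0 in 4. The calls in these lists stand beside 4.12% of all tested genes lower and 3.64% higher. Secisbp2l kept its call in all 8 omissions, Txndc5 in none, and Sesn2, Mthfd2, Pstk and Slc48a1 in 2 each. With the muscle covariate none of these 10 genes passed.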

How the data were processed

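Polyadenylated RNA of 8 tumour samples was sequenced with a strand-marking kit, per the series design text. The authors deposited raw counts per Ensembl gene. Trim Galore (version 0.6.7), HISAT2 (version 2.2.1), featureCounts (version 2.0.1) and mm10 are listed in the submitters' processing notes, whereas the design text names STAR and RSEM with mm10. The sources used here give neither the annotation release nor the strand setting nor the handling of multiply mapping reads. Symbols came from GENCODE M21 (52073 of 56691 identifiers; the other 4618 took 0.769% of counts).

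In R 4.3.3, edgeR 4.0.16 was used with its default low-count filter, TMM factors, robust quasi-likelihood tests, group as the sole term, two-sided, adjusted over 15755 genes. Levels are library-scaled counts (CPM) on the TMM scale, and errors of levels are SDs over 4 libraries. The SE of an edgeR log2 fold change is its absolute value divided by the square root of the F statistic. Log2 levels used a prior count of 2. The edgeR SEs hold variation between libraries as well as counting error. The procedure was tested on simulated data. Alternatives used limma 3.58.1 and DESeq2 1.42.0 and other scalings, filters, terms and library sets. Genes past the threshold and the 10 nearest to it on the other side are given by library, the others by mean. The 39 genes and all lists were chosen with earlier results of these data known.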

Additional observations from a re-analysis of the deposited data

Results flagged for a closer look

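Within groups of 4 libraries, 5 of 78 gene and group combinations held 1 library far from the other 3 by Dixon's criterion (gap to the nearest library over the range, at its 95% critical value), and chance alone flags about 1 in 20. Gss was low in control library 4 (36.0 CPM, ratio 0.92), and Gsr was low in C26 library 1 (227 CPM, ratio 0.852). Prdx3 was high in C26 library 2 (79.5 CPM, ratio 0.928), and Pgd was high in C26 library 3 (214 CPM, ratio 0.847). Osgin1 was low in control library 2 (4.39 CPM, ratio 0.924). None of these 5 genes passed the edgeR test with all 8 libraries or without any 1 of them.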

How the results depend on the processing

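No called gene changed direction under any of the 19 alternatives: of 969 single-gene values (the 39 genes, the 10 other pathway genes that passed, Hmox1 and Sqstm1), 850 kept their call or the lack of one, 101 lost a call and 18 gained one, among them Hmox1 with DESeq2 and both Hmox1 and Sqstm1 with the replicate block. The 6 genes lower in C26 became 3 with total library size, 0 with the muscle covariate and 2 without C26 libraries 2 and 3, and 3 to 5 when 1 library was left out. The count of genes higher, 0, became 2 with total library size, 1 with no low-count filter, 1 with DESeq2, 1 with the replicate block, 1 with length and GC offsets, 1 without C26 libraries 2 and 3, and 0 to 1 without 1 library. Their median log2 fold change of -0.10 was -0.031 with total library size, which moved all genes by a median of 0.07, and -0.063 with limma-voom, and -0.12 to -0.08 without 1 library.

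The other pathway genes lower, 8, became 4 with total library size, 16 with no filter, 15 with DESeq2, 0 with the muscle covariate and 2 (without C26 library 4) to 8 without 1 library. Those higher, 2, became 4 with total library size, 1 with the muscle covariate and 1 to 2 without 1 library. Over all genes, 649 lower became 415 with total library size, 993 with DESeq2, 17 with the muscle covariate and 367 (without control library 3) to 749 without 1 library. The 574 higher became 1534 with total library size, 1012 with no filter, 37 with the muscle covariate, 284 with length and GC offsets and 247 (without control library 1) to 708 without 1 library. The share of calls that were higher was 46.9%, 78.7% with total library size and 31.6% with length and GC offsets. The cause of these changes was not tested.

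Nothing in the labels says whether the replicate numbers pair the samples, and weak correlations among 4 libraries per group cannot settle it. Correlations of same-numbered deviations were -0.02, 0.14, -0.02 and 0.09. C26 libraries 2 and 4 correlated best with their same-numbered control, C26 library 1 with control library 3, and C26 library 3 with control library 1. With the replicate block 4 genes were lower, without Prdx6 and Tkt, and Gpx3 was higher. Whether depth limited the lowest gene, Gsta4 (SE 0.29), was not tested.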
